A study of Mus musculus with 369 samples.

Results

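Gated microglia of Trem2 knockout brains were compared with gated microglia of wild-type brains. The members of the comparison are the 76 knockout and 90 wild-type cells that passed all 3 quality criteria of the labels, 166 of the 334 passing cells in the series. Each genotype contributed 93 sorted cells that have a column in the table, of which 17 knockout and 3 wild-type cells failed a criterion. The assay was Smart-seq2, in which each sorted cell lies in a well of its own and its polyadenylated RNA is copied and amplified, with no molecular identifiers. Both groups were male mice at postnatal day 7, labelled C57BL6J, and both passed the sort gate labelled CD45lowCD11+Gpnmb+Clec7a+, that is, low CD45, CD11 and the surface proteins Gpnmb and Clec7a. The groups differ in the label TREM2_KO against wild type. The labels do not say how the allele was built or which exons it lacks. All cells of a group came from 1 plate, and animals are not named in the labels, which leaves 1 sample per genotype. There is therefore no test between the genotypes, no difference below has a replicate check, and plate and genotype cannot be told apart. The 95% intervals given for levels (Poisson) and for shares of cells (Clopper-Pearson) use exact formulas and hold counting error alone. The intervals for levels treat reads as independent, which amplified reads are not, so they understate even that error.

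Microglia, the brain's own macrophages, carry the surface receptor Trem2, which recognises lipids, lipoproteins and the membranes of dying cells and which signals through the adaptor Tyrobp and the kinase Syk. In adult models of amyloid disease, microglia around plaques switch on a program known as disease-associated microglia, whose later stage depends on Trem2. In the first postnatal week a related state, called proliferative-region-associated or axon tract microglia, appears in developing white matter, and its cells carry Gpnmb, Clec7a, Spp1, Igf1 and Lgals3. The gate selects such cells by 2 of their surface proteins, and the comparison asks how those labelled TREM2_KO differ in RNA from those labelled wild type.

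Levels are gene counts summed over the cells of a group and scaled to a total of 1000000 (CPM). A difference is given as log2 of the knockout level over the wild-type level, each with 1 CPM added. A gene was measured at 5 CPM or more in either group and was called higher or lower at 2-fold or more, which is a limit on size with no test behind it. A gene was found in a cell when 1 or more of its counts remained after each cell was thinned to 100000 gene counts. Spread was described over all pairs of 1 knockout and 1 wild-type cell, as the share of pairs with more thinned counts in the knockout cell, with ties split evenly. Gene counts per cell ranged from 198374 to 911880 in wild-type and from 186916 to 1030469 in knockout cells. Knockout cells held more detected genes after thinning, with a median of 3459 against 2641.5. Their gene counts per count of added spike-in RNA had a median of 53.7 against 39.8. Pair shares also lay to 1 side across genes: 81.3% of measured genes had a pair share over 50%, while 49.3% had a log2 ratio above 0. The part of detected genes and counts per spike-in count in the pair shares here and below was not tested, except where matched cells are given.

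The targeted gene was read first. Trem2 stood at 1604 CPM (95% interval 1593 to 1615) in wild-type and 413 CPM (407 to 419) in knockout cells, a log2 ratio of -1.96. Single wild-type cells ranged from 34.9 to 5287 CPM with a median of 1509, and knockout cells from 0 to 859 with a median of 363. The ranges overlapped, but 73 of 90 wild-type and 0 of 76 knockout cells reached 1000 CPM, and all 76 knockout cells lay below the lower quartile of the wild type. The knockout cell was the higher of the pair in 5.91% of pairs, the lowest share among the measured genes. Trem2 RNA was still found in 96.1% of knockout cells (88.9 to 99.2), so the library labelled TREM2_KO kept Trem2 transcript at a reduced level. Gene counts do not show which part of the transcript those reads came from. The gene lies on chromosome 17, bases 48346401 to 48354147 of the plus strand in mm10 (GENCODE M21).

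None of the other receptor partners differed by 2-fold. Of 14 measured genes of the receptor complex and its signalling, 0 were called higher and 1, Trem2 itself, lower, against 10.5% and 12% of the 9659 measured genes called higher and lower. The list median was -0.10 and that of all measured genes -0.02. Tyrobp, the adaptor, had 1515 CPM in wild-type and 1929.8 CPM in knockout cells, a log2 ratio of 0.35, with the knockout cell higher in 75.2% of pairs. Syk, the kinase recruited by Tyrobp, had a log2 ratio of -0.56, Plcg2, a phospholipase downstream of it, -0.30, and Inpp5d, a lipid phosphatase that opposes the pathway, -0.52. Scaling by spike-in counts moved the median of all genes from -0.02 to 0.35 and turned this list's median to 0.28, below that of all genes in both scalings.

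**Figure D1:**
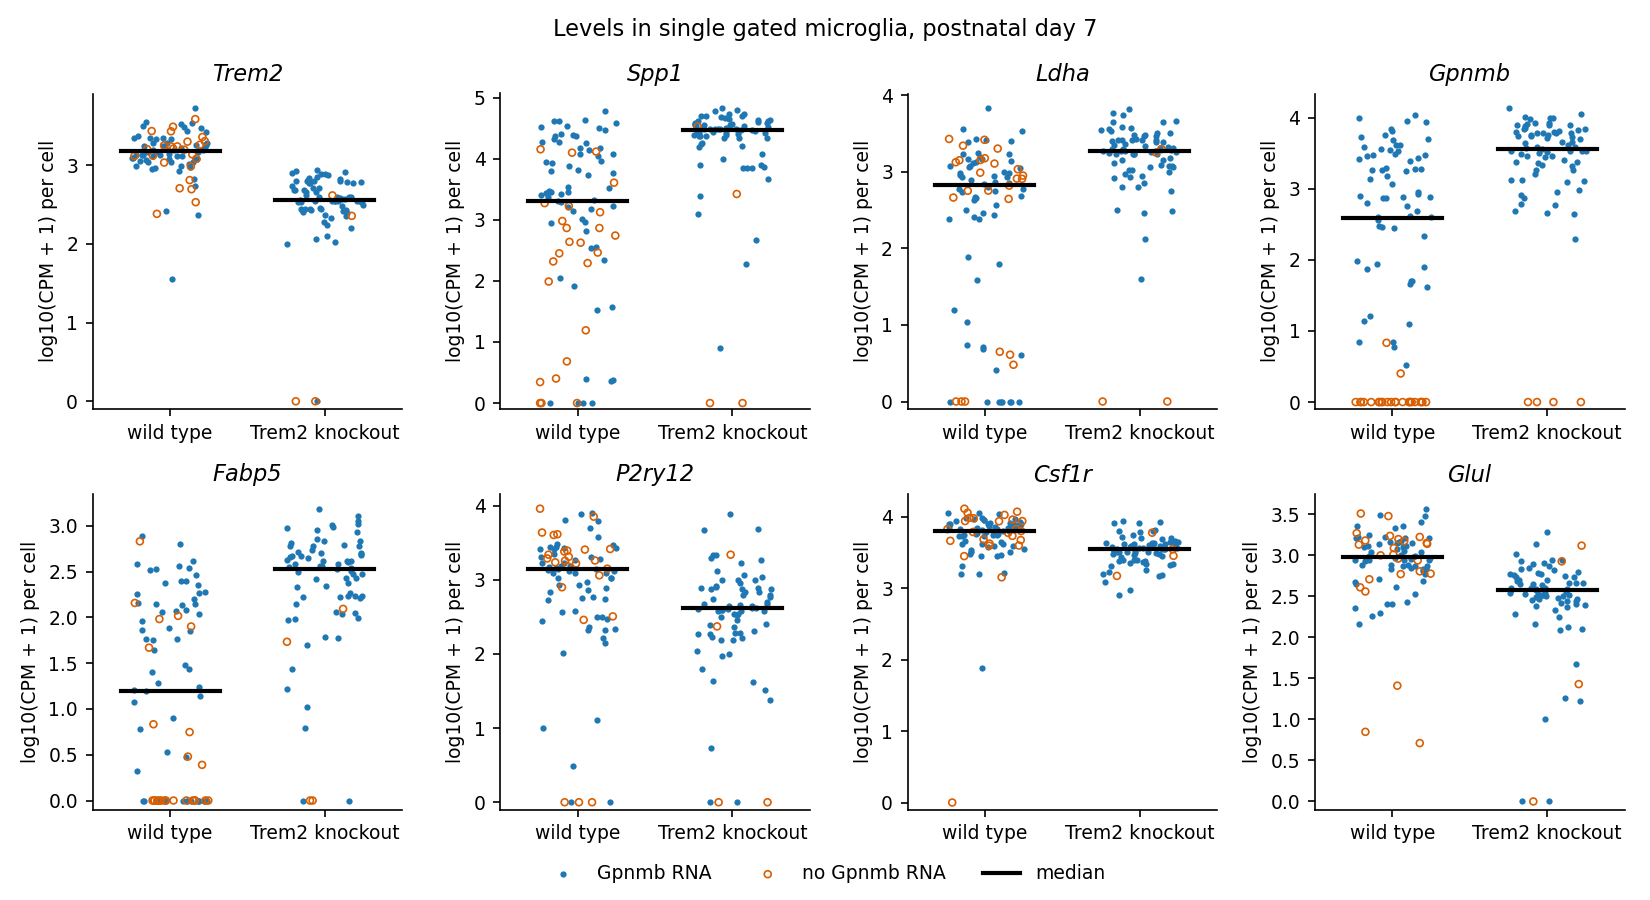
Levels of 8 genes in single gated microglia on a log10(CPM + 1) axis, with 1 point per passing cell (90 wild type, 76 knockout), filled where Gpnmb RNA was found and open where it was not, and a bar at the median. Trem2 is lower in nearly all knockout cells, Spp1, Ldha, Gpnmb and Fabp5 have few knockout cells at low levels, and P2ry12, Csf1r and Glul are shifted down.

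Across all genes, 1015 (10.5%) were called higher and 1157 (12%) lower in knockout cells. Most of these calls were of sparse genes: between 5 and 20 CPM, 19.2% of 3143 genes were called higher and 19.7% lower, against 3.41% and 4.55% of the 88 genes at 1000 CPM or more. Requiring also that 70% of cell pairs went the same way left 36 genes higher (0.373%) and 5 lower (0.0518%). Of all 2-fold calls 46.7% were higher, against 72.9% with spike-in scaling. The 5 lower genes were Trem2, Slco2b1, Ptgs1, Glul and P2ry12. Among the 36 higher genes were Spp1, Gpnmb, Lgals3, Fabp5 and Fabp3, the lactate and glucose genes Ldha, Slc2a1, Slc16a3, Tpi1 and Pgam1, the mitophagy receptor Bnip3, and Cs, the citrate synthase of the mitochondrial matrix. Matching 51 knockout to 51 wild-type cells on detected genes left 10 separated higher genes, all among the 36. Matching 47 pairs on Gpnmb level left 20, of which 5 were among the 36, and without the cells that carried border macrophage markers there were 83.

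**Figure D2:**
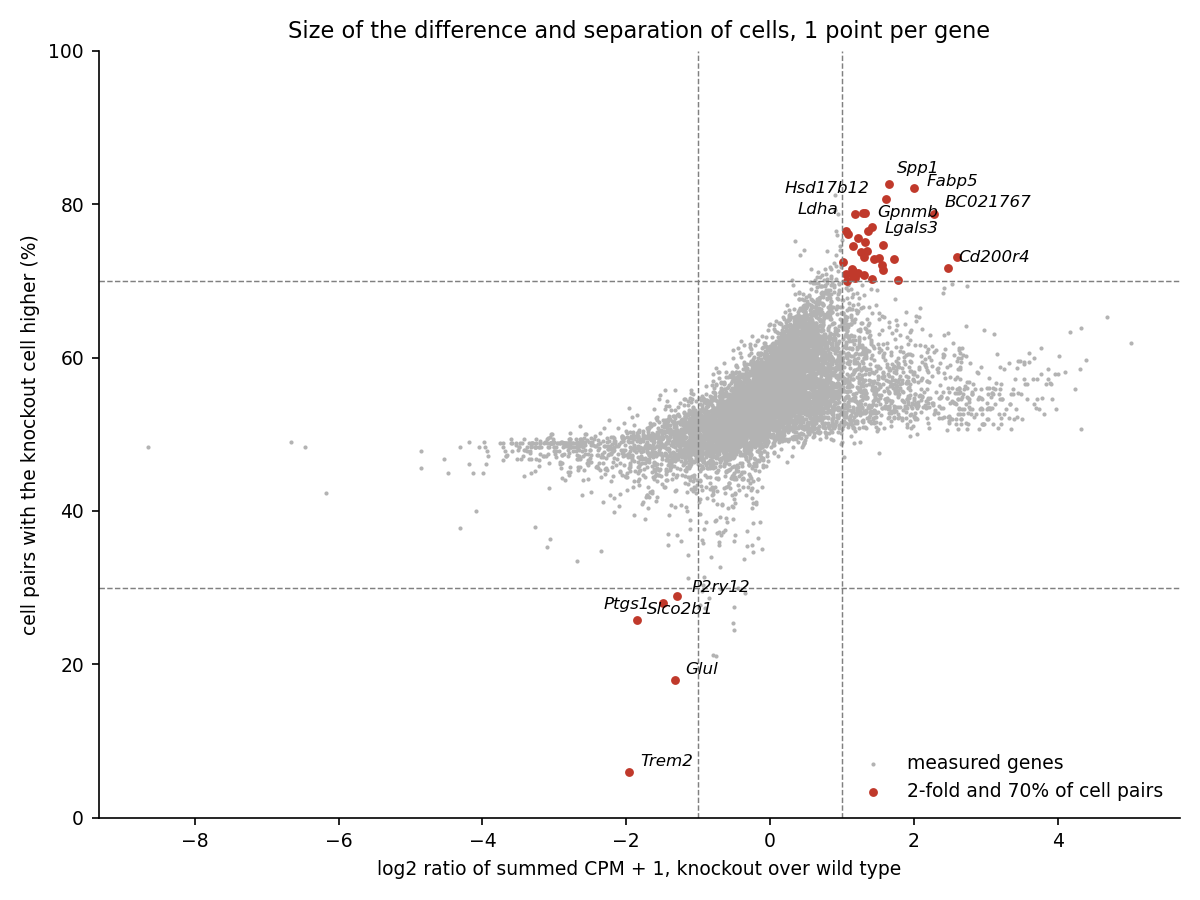
Share of cell pairs in which the knockout cell was higher (percent) against the log2 ratio of summed CPM plus 1, with 1 point per measured gene (9659) and lines at the 2-fold and 70% limits. The 36 separated higher genes sit in the upper right corner, Trem2 stands alone at the bottom at 5.91%, and the cloud as a whole lies above 50%.

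Spp1, which encodes the secreted phosphoprotein osteopontin, had the highest pair share of the measured genes. Wild-type cells ranged from 0 to 59524 CPM with a median of 2053, and knockout cells from 0 to 67084 with a median of 29311. The highest cells of the 2 plates were close, and the difference lay in how many cells were high: 60 of 76 knockout cells (78.9%) and 26 of 90 wild-type cells (28.9%) had 10000 CPM or more. Summed over cells Spp1 had 8779 CPM in wild type and 27524 CPM in knockout, a log2 ratio of 1.65, and the knockout cell was higher in 82.7% of pairs. The coefficient of variation over cells was 149% in wild type and 58.4% in knockout. The top 10% of wild-type cells held 46.8% of the summed Spp1 level and the top 10% of knockout cells 23.5%. Spp1 lies on chromosome 5, bases 104435118 to 104441050.

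The 2 sort markers differed in their RNA although both plates had passed the same surface gate. Gpnmb, a transmembrane glycoprotein of lysosomes and the cell surface, had a median of 382 CPM in wild-type cells (range 0 to 10923) and of 3654 CPM in knockout cells (range 0 to 13545). Its RNA was found in 65 of 90 wild-type cells (72.2%, 61.8 to 81.1) and 72 of 76 knockout cells (94.7%, 87.1 to 98.5), and its log2 ratio was 1.32. The wild-type plate therefore held 25 cells without Gpnmb RNA and the knockout plate 4. Clec7a, the beta-glucan receptor Dectin-1, had 346 CPM in wild type and 594 CPM in knockout, a log2 ratio of 0.78 that did not reach 2-fold. RNA of both markers was found in 49 of 90 wild-type and 66 of 76 knockout cells.

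Genes of the disease-associated program were divided by their known dependence on Trem2. The 7 measured genes of the early, Trem2-independent stage had a median of 0.06 with 0 called in either direction, and Apoe, the main lipoprotein of microglia, stood at 30470.5 and 29891 CPM, a log2 ratio of -0.03. Of the 12 measured genes of the Trem2-dependent stage, 1 was called higher (Lilrb4, an inhibitory receptor, log2 1.58) and 1 lower (Trem2 itself), and the median was 0.51. Cd9, a tetraspanin of that stage, had 2264 CPM in wild type and 4234 CPM in knockout, with the knockout cell higher in 81.2% of pairs and a log2 ratio of 0.90. Cst7, an inhibitor of lysosomal proteases, had a ratio of 0.60, Itgax, the integrin CD11c, 0.57, and Axl, a receptor for dying cells, -0.64. The median of this stage depended on the cells compared: it was 0.32 among cells with Gpnmb RNA, 0.20 in cells matched on Gpnmb level and 0.11 in cells matched on detected genes.

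The other 17 genes of the disease-associated and proliferative-region states had 5 called higher (29.4%) and 0 lower, with a median of 0.48 that was 0.13 in cells matched on Gpnmb level. Besides Spp1 and Gpnmb they were Fabp5, Lgals3 and Ch25h. Fabp5, a carrier of fatty acids, had a median of 14.9 CPM in wild-type cells (range 0 to 778) and 339.7 CPM in knockout cells (range 0 to 1544), with a log2 ratio of 2.00 and 82.2% of pairs higher in knockout. Lgals3, a lectin that marks damaged lysosomes, was found in 30% of wild-type and 77.6% of knockout cells and had a ratio of 1.42. Ch25h, which makes 25-hydroxycholesterol, was rare: it had 0 counts in wild-type cells and was found in 5 of 76 knockout cells at 7.31 CPM in sum. Igf1, a growth factor of the developmental state, had a ratio of 0.80 and passed no limit.

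By the ranking of sizes among genes found in enough cells, the 15 highest were led by genes that few wild-type cells had. Usp1, a deubiquitinase of the DNA damage response, was found in 1 of 90 wild-type cells (1.11%) and 24 of 76 knockout cells (31.6%, 21.4 to 43.3), at 0.279 and 31.8 CPM. On the unselected plates, which were sorted without the 2 markers, Usp1 had 50.3 CPM in wild type and 22.9 CPM in knockout, so the gated wild-type plate was the one that stood low. Tmem65, a mitochondrial membrane protein, was found in 4.44% and 43.4% of gated wild-type and knockout cells. Cd200r4, a member of the CD200 receptor family, was found in 10% and 52.6%, with a log2 ratio of 2.48. BC021767 was found in 28.9% against 78.9%. Ide, the insulin-degrading enzyme, which also cuts amyloid beta, was found in 15.6% against 61.8% of cells and had 30.0 and 102 CPM. Pi4k2a, a lipid kinase of endosomes, had a ratio of 1.77, and the depalmitoylase gene Fam108a, 2.60. The others were 5430435G22Rik, Haus4, Baz2a and Usp25, with ratios from 1.88 to 2.42, and Fam20c, Atp6v0d2, Fabp5 and Spp1, described with their groups. In 5430435G22Rik 1 wild-type cell held 96.2% of the wild-type counts, and without the top cell of each group the ratio was 5.23.

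**Figure D3:**
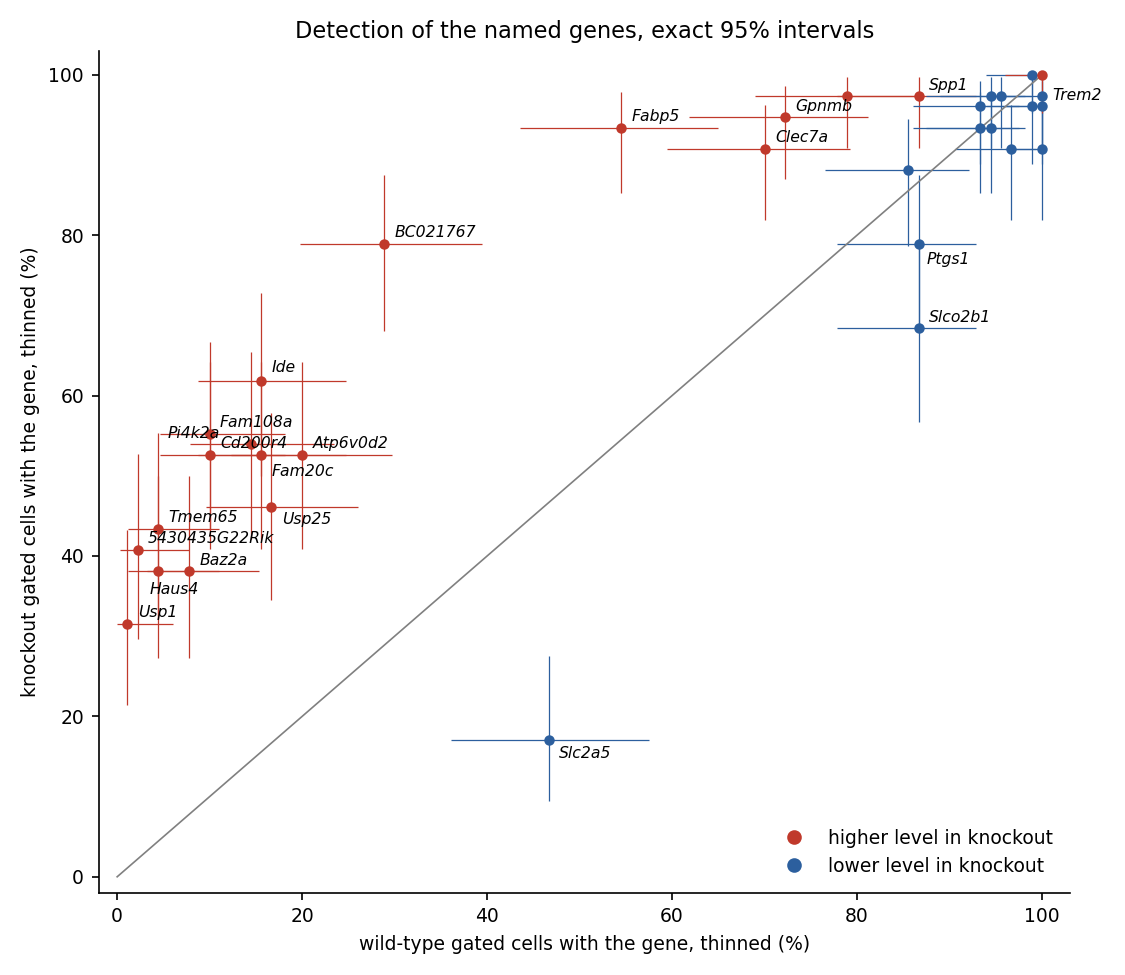
Share of gated cells in which each named gene was found after thinning to 100000 gene counts, knockout against wild type (percent), with exact 95% intervals that cover counting error only. Genes higher in knockout, from Usp1 to BC021767, lie above the diagonal, while Slc2a5, Slco2b1 and Ptgs1 lie below it and the abundant genes gather near 100% in both groups.

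Fam20c, the secretory kinase that phosphorylates osteopontin, was called higher together with its substrate. Wild-type cells ranged from 0 to 938 CPM with a median of 0, and knockout cells from 0 to 2051 CPM with a median of 11.8, with a log2 ratio of 2.53. The ranges overlapped, and many cells of both genotypes were at 0. Fam20c and Spp1 RNA were found together in 40 of 76 knockout and 10 of 90 wild-type cells, and Fam20c without Spp1 in 0 and 4. Spp1 RNA was found in all but 2 knockout cells, so the 0 says little about the pair. Cd44, a receptor for osteopontin and hyaluronan, was found in 5.56% of wild-type and 42.1% of knockout cells, with a ratio of 1.23. Of 23 measured genes of matrix, secreted factors and adhesion, 5 were called higher (21.7%), namely Spp1, Fam20c, Cd44, Fn1 (fibronectin, found in 4 knockout cells) and Emilin2, and 3 lower (13%), namely Tgfbi, Mmp14 and Thbs1. Each of the 3 lower genes was found in under 30% of cells: Tgfbi in 25.6% of wild-type and 13.2% of knockout cells. The list median was 0.32. Anxa4, a calcium-dependent membrane-binding annexin, was found in 38.9% and 77.6% of cells and had a ratio of 1.33, and S100a1, a calcium sensor, had one of 1.36. They were the 2 of 7 measured annexins and S100 partners that were called (28.6%), both higher, and the list median was 0.31.

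Glucose uptake and glycolysis was the list with the most separated members. Of its 21 measured genes, 5 were called higher (23.8%), all 5 of them separated, and 1 lower (4.76%), and 17 had a log2 ratio above 0. The list median was 0.78, and it stayed between 0.51 and 1.16 under the 17 alternatives. Ldha, the lactate dehydrogenase subunit that favours lactate formation, had a median of 676 CPM in wild-type cells (range 0 to 6749) and 1867 CPM in knockout cells (range 0 to 6488). The ranges were alike, while 60 of 76 knockout and 30 of 90 wild-type cells had 1000 CPM or more. In sum Ldha had 938 and 2119.9 CPM, a log2 ratio of 1.18, and 78.7% of pairs were higher in knockout. In cells matched on detected genes the Ldha ratio was 0.71, and in cells matched on gene counts per spike-in count 0.87, both short of 2-fold.

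The entry and exit of the pathway were called together with its middle. Slc2a1, the glucose transporter GLUT1, was found in 17 of 90 wild-type (18.9%) and 47 of 76 knockout cells (61.8%), at 50.5 and 151 CPM and with a ratio of 1.56. Slc16a3, the lactate exporter MCT4, was found in 47.8% and 80.3% of cells, with a ratio of 1.51. Tpi1, triose phosphate isomerase, had 359.7 and 883 CPM and a ratio of 1.29, and Pgam1, phosphoglycerate mutase, 1.08. Several other steps fell short of 2-fold with over 75% of pairs higher in knockout: Pkm2 (pyruvate kinase, 0.94), Aldoa (aldolase, 0.93) and Gapdh (0.91). The lower member was Aldoc, the aldolase of brain astrocytes, found in 4.44% and 2.63% of cells. Ldhb, the subunit that favours pyruvate, had a ratio of -0.47, and Pdk1, which holds back pyruvate entry into mitochondria, -0.51.

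Over the 76 knockout cells the genes most like Ldha by Spearman correlation, among 2787 genes found in at least 50% of cells, were Pgk1 (0.75), Aldoa (0.69), Pkm2 (0.67), Tpi1 (0.67) and Slc16a3 (0.67), all of them members of the list. Over the 90 wild-type cells they were Sdf2l1 (0.52), Spp1 (0.48), Tpi1 (0.48), Eno1 (0.47) and Fabp5 (0.47), among 1518 genes. These points share a plate and a depth, and in knockout cells Ldha also followed the number of detected genes (0.54) and the gene counts per spike-in count (0.62). For Spp1 the most alike gene was Ctsz, a lysosomal protease, in knockout cells (0.58) and Gpnmb in wild-type cells (0.63). In knockout cells the correlation of Spp1 with Gpnmb was 0.39. The highest correlation of Trem2 was 0.41 in both plates, with Flcn in knockout and Ctsb in wild-type cells.

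The promoters of the 5 glycolysis genes called higher were read for the core of the hypoxia response element, ACGTG or GCGTG, through which the factor Hif1a acts. Of these genes Ldha and Slc16a3 held only ACGTG, Slc2a1 and Pgam1 held both, and Tpi1 held neither in the 250 bases before its start. Ldha and Tpi1, which held the most and the fewest cores, and Slc16a3, whose cores lie closest to the start, are shown in RefSeq's GRCm38.p6 sequence, read 5′ to 3′ along the gene's strand and ending at the base before the start, with cores on either strand in capitals.
Ldha (chr7:46845554-46845803, plus strand): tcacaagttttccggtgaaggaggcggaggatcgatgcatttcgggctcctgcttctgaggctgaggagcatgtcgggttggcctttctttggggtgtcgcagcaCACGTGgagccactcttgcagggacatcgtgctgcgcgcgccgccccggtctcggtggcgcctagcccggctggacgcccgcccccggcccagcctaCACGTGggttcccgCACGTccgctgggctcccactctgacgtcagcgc
Slc16a3 (chr11:120948817-120949066, plus strand): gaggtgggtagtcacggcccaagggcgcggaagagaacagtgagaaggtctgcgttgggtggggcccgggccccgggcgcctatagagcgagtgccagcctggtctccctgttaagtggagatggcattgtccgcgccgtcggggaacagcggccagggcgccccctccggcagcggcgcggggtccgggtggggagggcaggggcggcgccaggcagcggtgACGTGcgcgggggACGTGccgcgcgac
Tpi1 (chr6:124814159-124814408, minus strand): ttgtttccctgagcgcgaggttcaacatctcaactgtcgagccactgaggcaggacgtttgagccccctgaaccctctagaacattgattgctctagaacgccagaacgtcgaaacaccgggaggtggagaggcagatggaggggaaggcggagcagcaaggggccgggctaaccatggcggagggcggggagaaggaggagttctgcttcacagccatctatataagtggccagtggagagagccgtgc
In the Ldha window ACGTG was matched 5 times over both strands, and 2 stretches of CACGTG count on each strand, since they read the same on both. The Slc16a3 window has 2 matches, both within 27 bases of the start. One or both cores occurred in 38.6% of 27025 promoter windows of the same length, in 58.7% of the 7082 measured genes that had one, in 80% of the 20 measured glycolysis genes and in 80% of the 15 measured genes of the other hypoxia list. ACGTG alone occurred in 22.9% of measured genes, 45% of glycolysis genes and 53.3% of hypoxia genes. A match describes these letters and not a bound factor.

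Other hypoxia response genes went both ways. Of 18 measured, 6 were called higher (33.3%), which were Bhlhe40, Ak4, Egln3, Bnip3, P4ha2 and Mif, and 2 lower (11%), Car9 and Hilpda, and the median was 0.57. The median was under 0.5 in 6 of 17 alternatives, with 0.33 without cycling cells and 0.42 in cells with Gpnmb RNA, where 0 genes were called lower. Bnip3, a receptor for the removal of mitochondria, had 137 and 321 CPM, was found in 61.1% and 90.8% of cells and had a ratio of 1.22. Mif, a cytokine-like protein, had 138 and 288 CPM and a ratio of 1.06. Egln3, an oxygen sensor that Hif1a switches on, was found in 5 wild-type and 22 knockout cells. Bhlhe40 and Ak4 were each found in 1 wild-type cell and in 10 and 11 knockout cells. Hif1a itself had a ratio of 0.59. Vegfa, a secreted target of the same response, stood at 0 and 0.337 CPM, and Adm, Ndrg1, Loxl2 and Pgf had 0 counts in both groups. Among 30 genes of the respiratory chain, 1 was called higher (3.33%), Ndufs1 with a ratio of 1.21, and 0 lower, with a median of 0.18.

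Homeostatic microglia genes had mostly lower levels in knockout cells. Of 25 measured, 0 were called higher and 7 lower (28%), 23 had a log2 ratio below 0, and the median was -0.50. P2ry12, the ADP receptor that steers microglial processes, had a median of 1398 CPM in wild-type cells (range 0 to 9074) and 408 CPM in knockout cells (range 0 to 7628). The ranges overlapped widely, it was found in 93.3% and 93.4% of cells, and the wild-type cell was higher in 71.1% of pairs, with a ratio of -1.29. Gpr56, an adhesion receptor of microglial identity, had 209 and 23.4 CPM, a ratio of -3.10. Slc2a5, the fructose transporter, was found in 42 of 90 wild-type (46.7%) and 13 of 76 knockout cells (17.1%), with a ratio of -2.68, opposite to the glucose transporter Slc2a1. Tmem119, a membrane protein of mature microglia, had a ratio of -1.73, with the wild-type cell higher in 61% of pairs, and 1 knockout cell held 24.7% of its knockout counts. Tgfbr1, the type I receptor for TGF-beta, had a ratio of -1.54, Siglech -1.14 and Selplg -1.11.

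The abundant members of that list differed less but in many cells. Csf1r, the receptor for the survival factors of microglia, ranged from 0 to 12896 CPM in wild-type cells (median 6297) and from 789 to 8729.5 in knockout cells (median 3553). Of the 76 knockout cells 55 were below the lower wild-type quartile, the wild-type cell was higher in 78.9% of pairs, and the ratio was -0.75. Cx3cr1, the fractalkine receptor, had 7676 and 5434 CPM, a ratio of -0.50, and Cst3, a secreted protease inhibitor, -0.52. Fcrls and Rnase4 were the 2 members above 0, with ratios of 0.11 and 0.28. All 9 microglia markers were measured, 8 of them lower in ratio and 3 by 2-fold, and their summed level was 21448 CPM in knockout and 27070 CPM in wild type. These are sums over a plate, and single cells of both plates were at 0 for P2ry12. With spike-in scaling the homeostatic median was -0.12, that is -0.47 from the median of all genes, and in cells matched on Gpnmb level the P2ry12 ratio was -0.43.

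The remaining named lower genes are enzymes, carriers and receptors of microglia. Glul, glutamine synthetase, had a median of 945 CPM in wild-type cells (range 4.14 to 3709) and 376 CPM in knockout cells (range 0 to 1911). It was found in nearly all cells of both plates (98.9% and 96.1%), 62 of 76 knockout cells lay below the lower wild-type quartile, and the ratio was -1.33. Ptgs1, cyclooxygenase 1, had 704 and 249 CPM and a ratio of -1.49. Slco2b1, an organic anion transporter, was found in 86.7% and 68.4% of cells, with a ratio of -1.86. D4Wsu53e had a ratio of -1.14. Ckb (creatine kinase), Ifngr1 (an interferon gamma receptor chain), Malat1 (a nuclear noncoding RNA), Cyth4 and Serinc3 were lower by less than 2-fold, with ratios from -0.98 to -0.85, and so was Sparc, a matrix-binding protein, at -0.94. In cells matched on detected genes the Glul ratio was -0.86.

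Lysosomal genes as a whole were close to the wild type in summed level, while most had pair shares over 50%, as had 81.3% of all measured genes. Median pair shares were 56.8% for proteases, hydrolases and membrane proteins, 58.8% for proton pump subunits and 54.1% for all measured genes. Of 33 measured proteases, hydrolases and membrane proteins, 1 was called higher (3.03%), the endolysosomal channel Mcoln3, found in 6.67% and 27.6% of cells, and 0 lower, with a median of 0.10. Of 16 proton pump subunits, 1 was called higher (6.25%) and 0 lower, with a median of 0.12. That subunit was Atp6v0d2, the form of the d subunit used by osteoclasts, which ranged from 0 to 1752 CPM in wild-type cells (median 0) and from 0 to 2845 CPM in knockout cells (median 12). Its RNA was found in 18 of 90 wild-type (20%) and 40 of 76 knockout cells (52.6%), in all but 1 of each together with Gpnmb RNA. Gpnmb RNA was found in 72.2% of all wild-type and 94.7% of all knockout cells, so the knockout overlap says little about the pair. The Atp6v0d2 ratio was 2.40 over all cells and 1.17 in cells matched on Gpnmb level.

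Lipid genes were mixed. Of 23 genes of lipid uptake, storage and efflux, 4 were called higher (17.4%), Fabp5, Fabp3, Pparg and Ch25h, and 2 lower (8.7%), the fatty acid receptor Cd36 and the lipoprotein receptor Vldlr, with a median of 0.18. Pparg was found in 2 knockout cells and Cd36 in 12 wild-type and 4 knockout cells, so these calls rest on few cells. Fabp3, a second fatty acid carrier, was found in 32.2% of wild-type and 78.9% of knockout cells and had a ratio of 1.01. Plin2, the coat of lipid droplets, had a ratio of 0.54, and the cholesterol exporters Abca1 and Abcg1 had ratios of -0.40 and -0.66. Of 17 cholesterol synthesis genes, 5 were called higher (29.4%), among them Hmgcs1 and Sqle, and 1 lower (5.88%), Insig1, which holds that pathway back. Their levels were low: Hmgcs1 had 27.8 and 58.9 CPM and was found in 23.3% and 46.1% of cells, and the list median was 0.25.

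Cell cycle genes were higher in the knockout plate, which also held more cells with Mki67 or Top2a RNA. Of 28 mitosis genes, 11 were called higher (39.3%) and 0 lower, with a median of 0.79, and of 24 replication genes, 9 higher (37.5%) and 2 lower (8.33%), with a median of 0.75. Top2a, which untangles DNA, had 16.5 and 109 CPM and was found in 10 of 90 wild-type and 23 of 76 knockout cells. Kif11, a spindle motor, was found in 2 and 16 cells, and Cdc45, a part of the replicative helicase, in 0 wild-type and 9 knockout cells. Cells with 10 CPM or more of Mki67 or Top2a numbered 28 of 76 in the knockout and 19 of 90 in the wild type. Without them the mitosis median was -0.18 and the replication median 0.014, and in cells matched on detected genes they were -0.75 and 0.11, so the mitosis direction turned. Without the cycling cells the Ldha ratio was 0.94.

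Cytokines and chemokines had the lowest median of the 24 pathway lists, -1.02, with 0 of 13 measured genes called higher and 7 lower (53.8%). The summed level of the list was close, at 1401 CPM in wild type and 1380 CPM in knockout, and the median cell had 1026 and 1061 CPM. The median pair share of its members was 50.7%, with 7 over 50%. The 7 were Ccl7, Ccl4, Ccl12, Cxcl16, Tgfb1, Ccl2 and Osm, and all were sparse. Ccl4, a chemokine of activated microglia, was found in 20 wild-type and 13 knockout cells at 50.1 and 12 CPM. Ccl7 was found in 9 wild-type cells and had 0 counts in knockout cells, and 1 wild-type cell held 61.9% of its counts. Among cells with Gpnmb RNA the list median was -0.39 with 3 of 11 measured genes lower and 1 higher, and Ccl2 went from -1.39 to 0.71. In cells matched on Gpnmb level the list median was -0.01.

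Other groups differed little, and with spike-in scaling the medians of the complement (0.09), ribosomal (0.34), antigen presentation (0.21) and dissociation (0.05) lists turned above 0, though not above the 0.35 of all genes. None of 23 measured complement, Fc receptor and engulfment genes was called, with a median of -0.29: C1qa, the first complement component, had 3021 and 2379 CPM and a ratio of -0.34, and C1qb one of -0.23. None of 30 ribosomal protein genes was called, with a median of -0.03. Of 12 antigen presentation genes, 0 were called higher and 1 lower (8.33%), Cd74, the class II invariant chain, at 48.2 and 4.77 CPM, with 47% of its wild-type counts in 1 cell. Of 16 interferon response genes, 2 were called higher (12.5%), Ifitm3 and Usp18, and 1 lower (6.25%), Ifih1, and the median was 0.41 over all cells and -0.12 among cells with Gpnmb RNA. Of 16 iron and antioxidant genes, 2 were called higher (12.5%), the thiol reductases Txnrd1 and Gsr, and 0 lower, with a median of 0.39. Of these 16, 14 had a log2 ratio above 0, while Slc40a1, the iron exporter, had a ratio of -0.93. Amino acid and stress response genes had 2 of 13 called higher (15.4%), Asns and Aldh18a1, and 1 lower (7.69%), Ddit3, with a median of 0.02. Over all measured genes these shares were 10.5% and 12%. Genes of the early response to cell dissociation had 2 of 13 called higher (15.4%), Klf2 and Jund, and 1 lower (7.69%), Junb, with a median of -0.32. Fos stood at 0.130 and 0 CPM.

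**Figure D4:**
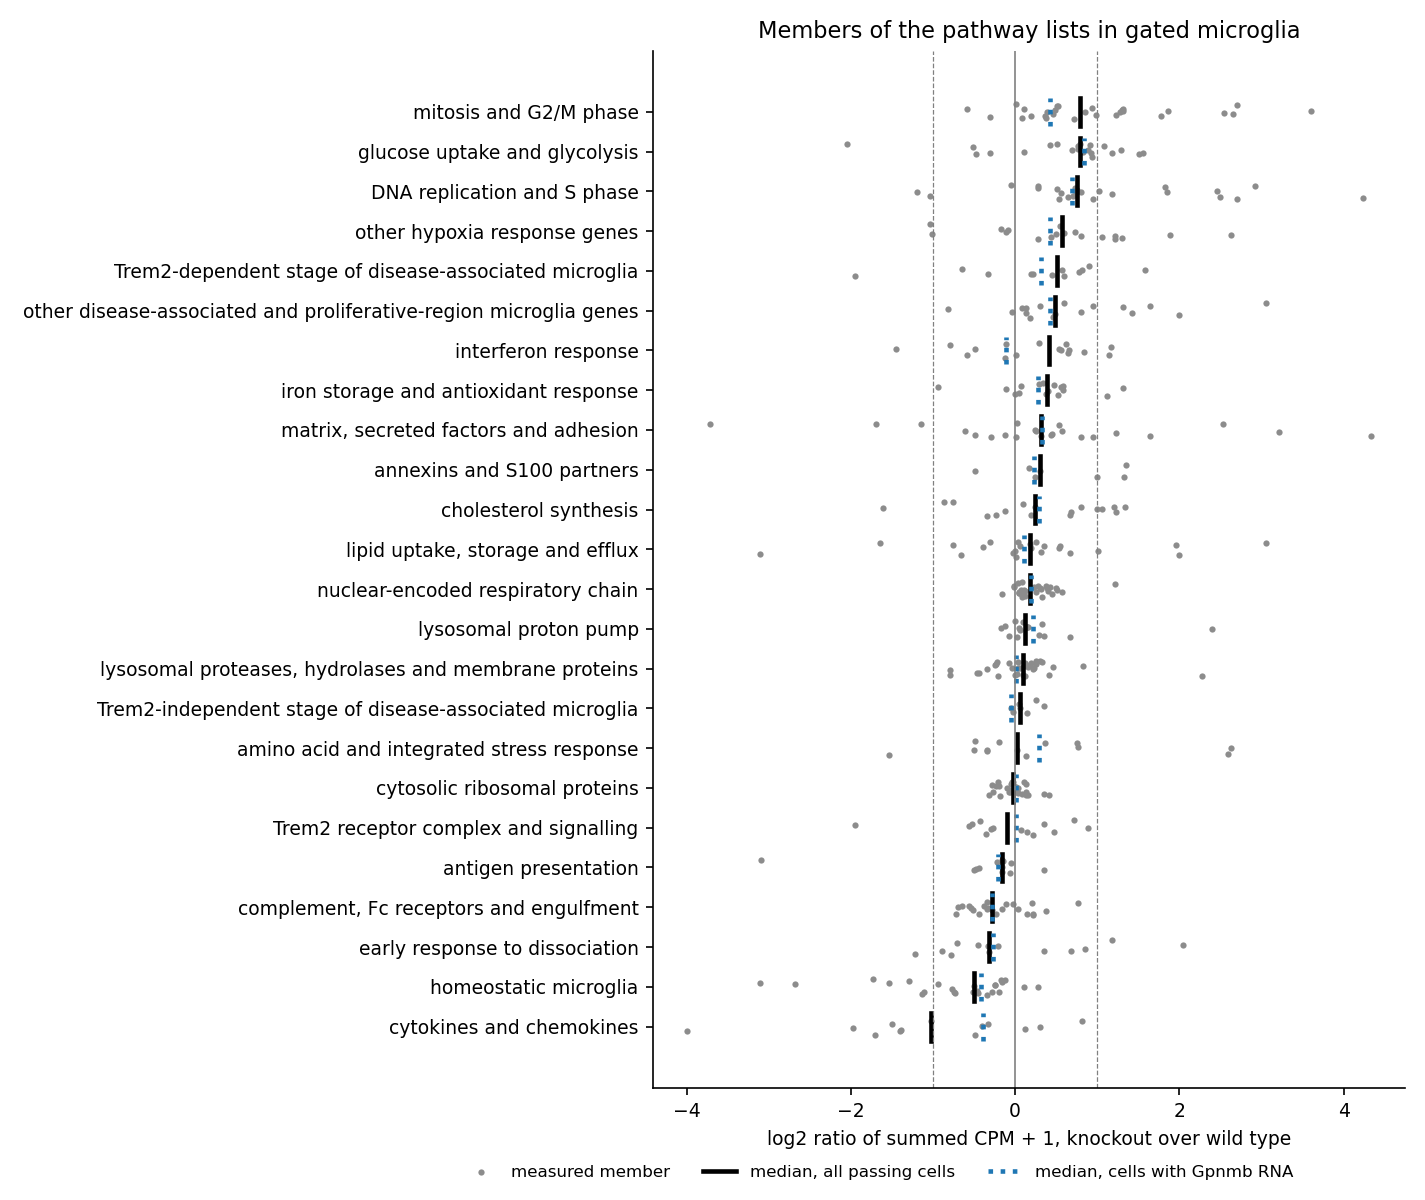
Log2 ratios (knockout over wild type, summed CPM plus 1) of the measured members of the 24 pathway lists, with 1 point per gene, a solid bar at the list median over all passing cells and a dotted bar at the median over cells with Gpnmb RNA. Glycolysis (0.78 and 0.83) has nearly the same median in both sets of cells, homeostatic genes are below 0 in both (-0.50 and -0.42), and the cytokine median moves from -1.02 to -0.39.

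Markers of other cells were read in both plates. Of the 10 border-associated macrophage markers all were measured, and 0 were called higher and 3 lower (30%). Their summed level per cell ranged from 0 to 18680 CPM in wild-type cells (median 946) and from 99.9 to 15677 CPM in knockout cells (median 1401). Cells with 3 or more of these markers at 10 CPM or more numbered 27 of 90 and 35 of 76. The most specific of them were in few cells: Lyve1 was found in 9 wild-type and 2 knockout cells, and Cd163 in 6 and 1. Stab1, which is also in the engulfment list, was found in 92.2% and 100%. Red blood cell markers were lower in the knockout plate, with a summed level of 437 CPM in wild type against 5.03 CPM, and the median cell of both plates was at 0. Their highest wild-type cell had 30895 CPM. Astrocyte markers had 4 of 8 measured, with Gfap called higher and Slc1a3, Aldoc and Aldh1l1 lower. Lymphocyte, oligodendrocyte and endothelium markers had 1, 2 and 1 measured, of which Pecam1 of endothelium was called lower. Monocyte, neutrophil, neuron, pericyte and fibroblast markers were all below 5 CPM in both groups. The part of these other cells in the gene differences was not tested. Without the cells that carried border macrophage markers (41 knockout, 63 wild type), the ratios of Trem2, Spp1 and Ldha were -2.08, 1.78 and 1.32. Over all cells they were -1.96, 1.65 and 1.18. Stab1 counts among the 3 or more markers, so the cells left out are not a clean set of another cell type.

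The comparison was repeated in cells with Gpnmb RNA, 72 knockout and 65 wild type. Of 9531 measured genes, 1183 (12.4%) were called higher and 1044 (11%) lower, and 36 (0.378%) and 6 (0.063%) were separated. The pair share was over 50% in 79.2% of these genes and the log2 ratio above 0 in 51.9%. Of the genes called over all cells, 766 of 1015 higher (75.5%) and 733 of 1157 lower (63.4%) were called again, and of the separated genes 23 of 36 and 4 of 5. These cells are part of the first set, so the overlap is no separate evidence. Trem2 had a ratio of -1.95, Spp1 1.33, Ldha 1.23, Fabp5 1.84 and Gpnmb itself 0.93. The median Spp1 level was 3333 CPM in wild-type and 29462 CPM in knockout cells of this set, with the knockout cell higher in 81.1% of pairs. Homeostatic genes had 5 of 25 called lower and a median of -0.42, with Tmem119 at -1.27 and Siglech, at -0.83, no longer past 2-fold. Glycolysis had 6 of 22 measured genes called higher and 1 lower, with a median of 0.83. The few cells without Gpnmb RNA (25 wild type and 4 knockout) gave Trem2 levels of 1503 and 192 CPM, with 2 of the 4 knockout cells at 0. Spp1 in those 4 knockout cells was 0, 0, 2646 and 33638 CPM, so 1 cell held most of it.

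Closer matching moved the genes by different amounts. In 47 pairs of cells matched on Gpnmb level, the Spp1 ratio was 0.75, less than 2-fold, and Fabp5 1.27, while Fam20c stayed at 2.48, Slc2a5 at -2.40 and Trem2 at -2.09. In 51 pairs matched on detected genes, Spp1 was 1.14, Fabp5 1.31 and Trem2 -1.86. In 57 pairs matched on gene counts per spike-in count, Spp1 was 1.31 and Ldha 0.87. Over the 17 alternatives the Trem2 ratio ran from -2.09 to -1.58 and was past 2-fold in all.

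**Figure D5:**
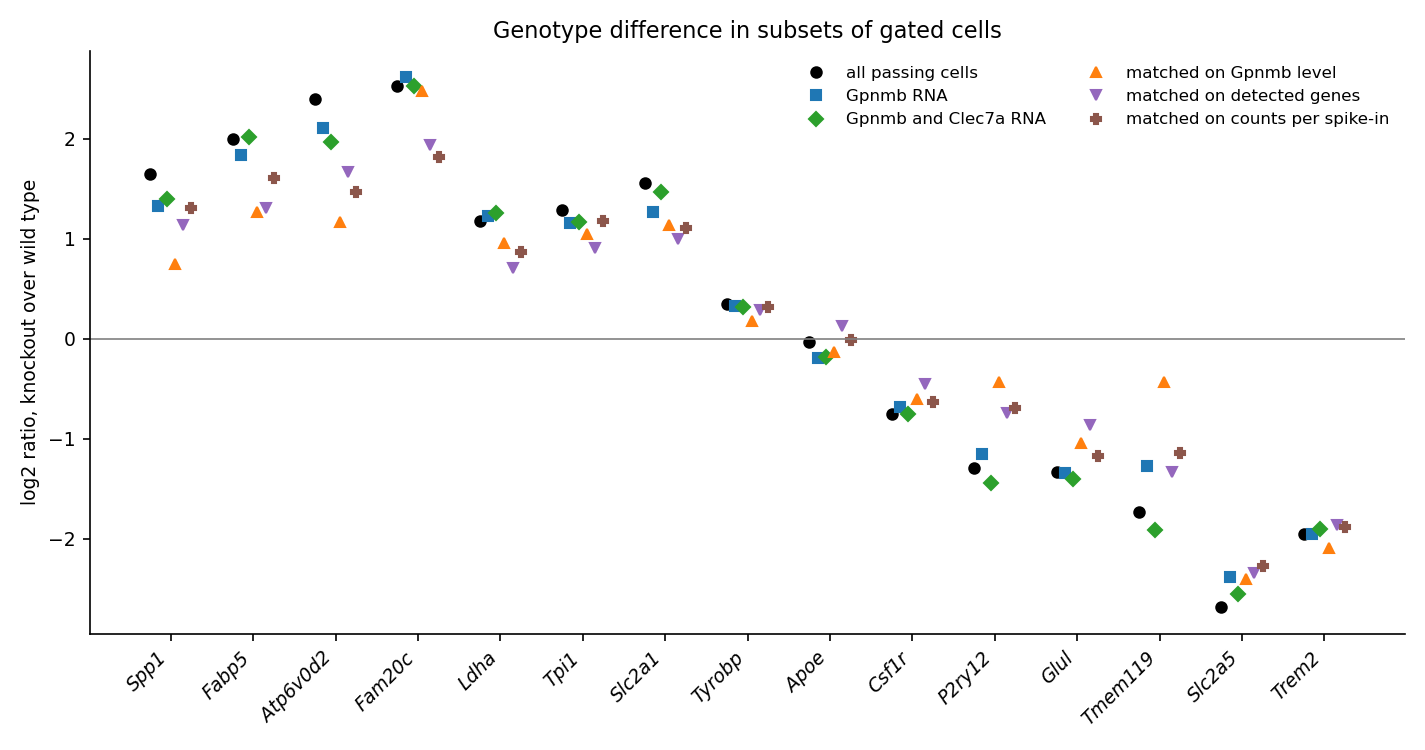
Log2 ratio (knockout over wild type) of 15 genes over all passing cells and in 5 sets of cells chosen or matched on other measures, with 1 symbol per set. Trem2 (-2.09 to -1.86) and Slc2a5 are lower by similar amounts in all 6 sets, Fam20c is at 1.82 or more in each, Spp1, Atp6v0d2 and Fabp5 shrink most when cells are matched on Gpnmb level, and P2ry12 and Tmem119 come within 0.5 of 0 there.

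The unselected plates of the same genotypes, 78 wild-type and 90 knockout cells, give values to set beside these. They are other plates with 1 sample each, and the difference between the 2 genotype differences was not tested. There Trem2 had 1115 and 229 CPM, a ratio of -2.28. Spp1 had 936 and 1559.8 CPM, a ratio of 0.74 with the knockout cell higher in 46.8% of pairs. Ldha had a ratio of 0.68, P2ry12 0.04, Slc2a5 0.09, Glul -0.50 and Csf1r -0.11. Of 9929 measured genes, 53.6% had a log2 ratio above 0 and 32.6% a pair share over 50%. On the gated plates these shares were 49.3% and 81.3%. Unselected knockout cells held fewer detected genes after thinning, a median of 1949 against 2282.5 in wild type, the reverse of the gated plates. Their gene counts per spike-in count had a median of 18.1 against 24.9. On these unselected plates 1601 genes (16.1%) were called higher and 1310 (13.2%) lower. Requiring 70% of cell pairs left 0 (0%) and 3 (0.0302%). The part of the detection difference in these counts was not tested. Homeostatic genes had 0 of 25 called in either direction there, with a median of -0.04, and glycolysis 2 of 21 called higher, with a median of 0.09. Mitosis genes had 9 of 28 called higher (median 0.66), the Trem2-dependent stage 3 of 12 higher and 1 lower (0.48) and annexins and S100 partners 2 of 7 higher (0.84), on the same side of 0 as in the gated plates. The cytokine median (0.53) and Gpnmb (-1.33) had the sign opposite to that in the gated plates, and Gpnmb RNA was found there in 23.1% of wild-type and 13.3% of knockout cells.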

How the data were processed

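The authors deposited 1 table of read counts per gene for the sorted cells. The submitters' processing notes name HTSeq, Picard, Trim Galore 0.4.3 and STAR 2.5.3a, and the build mm10. They give neither a gene annotation nor a strand setting, so overlapping and antisense genes and near-identical copies cannot be told apart. The table has 23337 genes, no mitochondrial genes, and 92 spike-ins, which took 2.49% of the counts and were left out of gene totals. Cells were grouped by the genotype, gate and plate in the labels, and cells that failed any of 3 quality labels were left out. Doublets were not called, because 1 cell was sorted per well, and reads amplified in PCR are not independent molecules, since no molecular identifier was used.

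Counts were summed per group and scaled to CPM. A 2-fold call needs a log2 ratio of 1 or more in size with 1 CPM added, agreement in sign of the mean CPM per cell, and 5 CPM in either group. A separated gene also has 70% of cell pairs in its direction after thinning to 100000 counts (seed 7). A list was called when its median was 0.5 or more from 0. The named genes are the 15 largest differences in each direction among genes with 20 CPM, found in 25% of cells and with 65% of pairs in 1 direction (314 eligible higher, 27 lower), ranked by the smaller of the 2 log2 values, plus up to 5 called members of each list. Other genes were chosen after their values were seen. Members and lists were chosen with earlier results of these data known; of 558 listed symbols 555 matched, 5 by an older symbol. Calculations used Python 3.11.15, numpy 2.4.6, pandas 2.3.3, scipy 1.17.1 and matplotlib 3.10.9, and R 4.3.3 with edgeR 4.0.16 (TMM factors) and DESeq2 1.42.0 (size factors) as alternative scalings only. Median log2 ratios were checked on simulated counts with known fold changes. Calls and pair shares were computed there but held to no limit. No p-value was computed, since each group is 1 sample. One gene is not reported here.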

Additional observations from a re-analysis of the deposited data

How the results depend on the processing

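No paired analysis was possible because each genotype has 1 plate and no replicate numbers. Among the main results 165 values were labelled the same under the alternatives. For gene counts this means a count close to the main one, and for levels and list medians the same side of their limit. Another 13 fell under their limit, 5 passed it and 16 gene counts moved further. No main level or median past its limit turned direction. The Trem2-independent median, within 0.5 of 0, ran from 0.44 to -0.15. Genes 2-fold higher numbered 1015, but 1824 with spike-in scaling, 641 with 5 CPM added, 411 at 20 CPM or more, 1584 with no level filter and 1670 in cells matched on Gpnmb level. Genes lower numbered 1157, but 678, 742 and 538 under the first 3 of these. Separated higher genes numbered 36, but 65 with spike-in scaling, 10 in cells matched on detected genes, 20 matched on Gpnmb level (5 of them among the 36), 18 matched on gene counts per spike-in count, 63 with Gpnmb and Clec7a RNA and 83 without border macrophage markers; separated lower genes were 3 with spike-in scaling and 3 in cells matched on gene counts per spike-in count. Ldha passed under 2-fold in cells matched on detected genes (0.71), Gpnmb level (0.96) or gene counts per spike-in count (0.87) and without cycling cells (0.94), and Spp1 in cells matched on Gpnmb level (0.75). The Trem2-dependent median of 0.51 was 0.11 matched on detected genes, 0.20 on Gpnmb level and 0.34 on gene counts per spike-in count, 0.32 with Gpnmb RNA, 0.31 with Gpnmb and Clec7a RNA, 0.25 with 100 CPM of Gpnmb, 0.41 without border markers and 0.36 without cycling cells. The homeostatic median passed the limit of 0.5 below 0 as mean CPM per cell (-0.51), without each gene's top cell (-0.50), with failing cells (-0.52), without border markers (-0.55) and without cycling cells (-0.55). Of the values past their limit, the directions that turned were those of the mitosis median (-0.75 matched on detected genes, -0.18 without cycling cells), the border macrophage median (0.077 without cells carrying those markers, 0.53 matched on Gpnmb level) and Gpnmb (-0.11 matched on its own level). Medians within 0.5 of 0 also changed sign under 1 or more alternatives for the receptor complex, Trem2-independent, lysosomal, lipid, stress, ribosomal, interferon, antigen presentation, complement, dissociation, lymphocyte and oligodendrocyte lists. The matching on gene counts per spike-in count and a second thinning seed were chosen after seeing the data. The causes of these moves were not tested, and some of the sets held fewer cells or genes. With 1 plate per genotype, depth limits only counting error: genes under 20 CPM were found in few cells, and their calls rest on few libraries.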

Other observations

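Values that belong to no comparison above concern which RNAs occurred in the same cell. Spp1 RNA without Tmem119 RNA was found in 38 of 76 knockout and 31 of 90 wild-type gated cells, and both RNAs together in 36 and 47. Tmem119 RNA without Spp1 RNA was found in 0 knockout and 8 wild-type cells. Mki67, a marker of cycling cells, was found together with Spp1 RNA in 26 knockout and 14 wild-type cells, and without it in 0 and 5. Spp1 RNA was found in all but 2 knockout cells, so the 0 counts without it say little about either pair. Clec7a RNA without Gpnmb RNA was found in 3 knockout and 14 wild-type cells, and neither of the 2 gate markers had RNA in 1 knockout and 11 wild-type cells. The Spearman correlation of Trem2 with Spp1 was 0.02 over the 76 knockout and 0.088 over the 90 wild-type cells, and that with Ldha -0.04 and -0.11, as a description with no test.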
